A study of Arabidopsis thaliana with 2 samples.

Results

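The expansin superfamily was followed across 34 loci of Arabidopsis thaliana, taken from a fixed list by locus identifier and not by any measured value: 25 alpha-expansins (EXPA), 5 beta-expansins (EXPB), 3 expansin-like A genes (EXLA) and 1 expansin-like B gene (EXLB). Reads were found on 27 of the 34, out of 23667 loci with reads in the series. The RNA came from whole 12-day-old seedlings, 1 library per genotype. The tested seedlings carried the genotype FMO5-OE T1 in the Col-0 background, and the others were wild-type Col-0. OE was taken to mean overexpression, here of FMO GS-OX5, a flavin-containing monooxygenase. Not given in the sources used here were the meaning of T1, the promoter and the number of seedlings pooled. Both genotypes were untreated and grew on plates at 20 °C in long days under a photon flux of 90 µmol per square metre and second.

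Expansins are small secreted proteins that loosen the plant cell wall without cutting its polymers, and they act best at the acid pH that proton pumps create in the wall during growth. Alpha-expansins are the classical acid-growth proteins of dicots, beta-expansins form a smaller class in Arabidopsis, and the expansin-like proteins share the fold but have no established wall-loosening activity. Family members are expressed in different organs and cell types, with EXPA7 and EXPA18 known from root hairs.

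The FMO5-OE T1 library held 12.21 M counted reads and the Col-0 library 11.56 M. Counts were scaled to a common depth as CPM with TMM factors, which adjust for the composition of the libraries, and a single read was worth 0.0792 CPM in FMO5-OE T1 and 0.0894 CPM in Col-0. FMO GS-OX5 (AT1G12140) had 1379 reads in FMO5-OE T1 and 28 in Col-0, or 109 and 2.50 CPM. Leaf mesophyll markers summed to 27343 CPM in FMO5-OE T1 and 33804 CPM in Col-0. Among the 11 root markers BGLU23, a beta-glucosidase, had 5813 CPM in FMO5-OE T1 and 5341 CPM in Col-0, and the other 10 summed to 204 CPM in FMO5-OE T1 and 256 CPM in Col-0. With 1 library per genotype there is no test between genotypes, and the intervals given are 95% intervals of counting error alone. Genotype and any other difference between the seedling batches cannot be told apart.

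As a family the expansins held nearly the same share of the counted reads in both genotypes, and a few alpha-expansins held most of the expansin reads counted. Expansins took 14174 reads or 0.116% of the FMO5-OE T1 library (Wilson interval 0.114% to 0.118%) and 13477 reads or 0.117% of the Col-0 library (0.115% to 0.119%). Alpha-expansins accounted for 91.7% of these reads in FMO5-OE T1 and 92.6% in Col-0. Their summed level was 1030 CPM in FMO5-OE T1 and 1116 CPM in Col-0, that of the beta-expansins 40.8 and 36.6 CPM, and that of expansin-like A 31.8 and 36.0 CPM. EXPB3 held 231 of the 515 beta-expansin reads in FMO5-OE T1 and 144 of the 409 in Col-0. Its model 1 was covered over only 8.36% and 8.52% of its length. The class values may therefore understate the beta-expansins. The alpha-expansins EXPA1, EXPA10 and EXPA20 were also counted over part of their length. The ratio of the family sums depended on the scaling. It was 0.932 (0.910 to 0.954), FMO5-OE T1 over Col-0, with TMM factors and 0.996 (0.973 to 1.02) with total counts.

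Levels were compared between genes per length, as CPM per kilobase of the transcript model, and the shares below are of the sum of these values over the family. The order depends on counts over the whole model, which EXPA1, EXPA10, EXPA20 and EXPB3 lack, as given with the coverage. By this measure EXPA8 ranked first, at 215 CPM per kilobase in FMO5-OE T1 and 225 in Col-0. EXPA4 followed with 164 in both libraries, EXPA6 with 128 and 141, EXPA3 with 80.5 and 102, and EXPA15 with 68.7 and 76.5. These 5 genes kept the same order in both libraries and together held 71.5% of the expansin pool in FMO5-OE T1 and 72.1% in Col-0. By reads per covered base, a measure chosen after the data were seen, EXPA8 again ranked first and the 5 held 60.9% and 64.5%. EXPA11 had rank 6 in both. At the other end, EXPA2, a gene known from germinating seeds, had 2 reads in each library, and EXPA12 had 1 read in FMO5-OE T1 and 2 in Col-0.

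**Figure D1:**
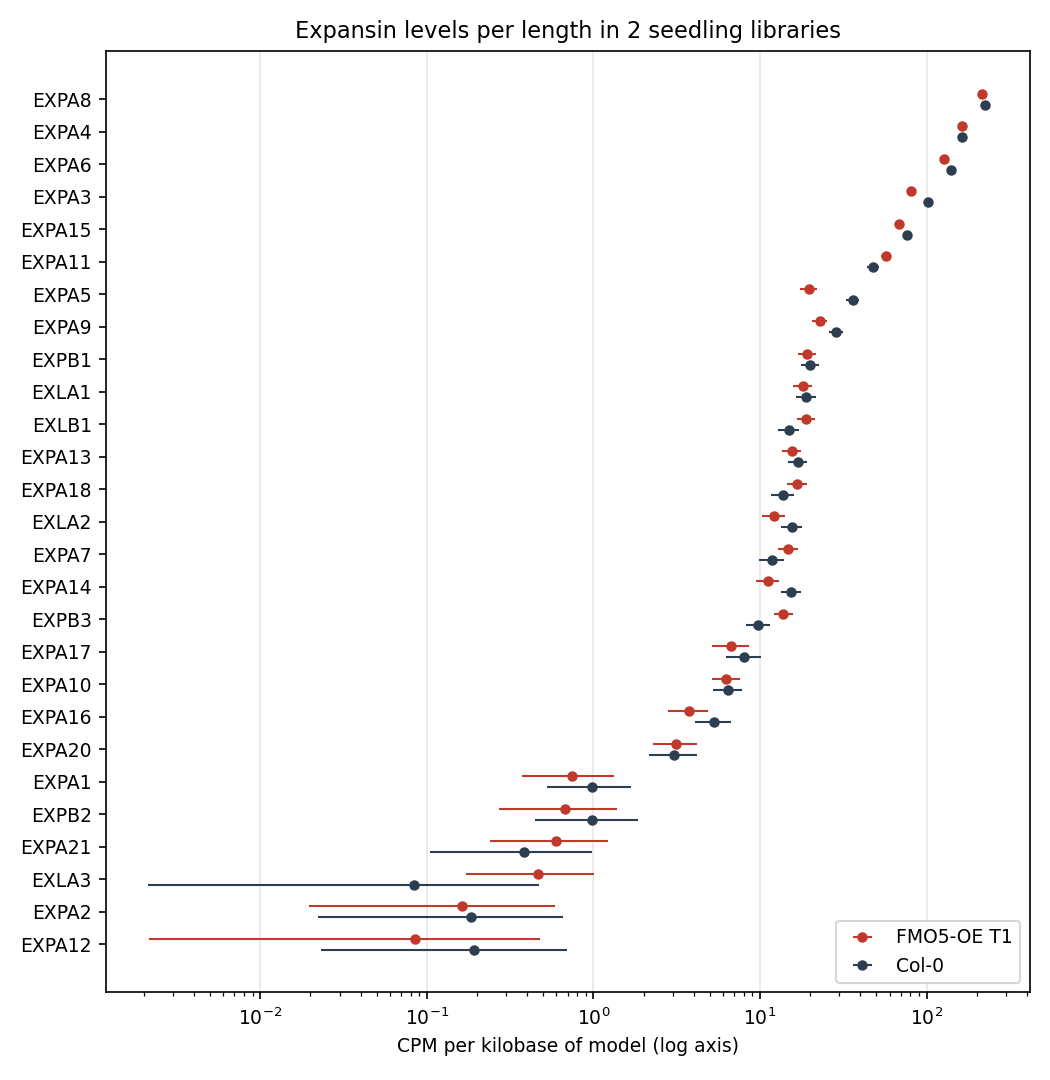
Level of the 27 expansins with reads, in CPM per kilobase of transcript model on a log axis, with FMO5-OE T1 above Col-0 for each gene and bars for the exact Poisson 95% interval of the reads. Both libraries keep the same top 6, from EXPA8 at 215 CPM per kilobase in FMO5-OE T1 and 225 in Col-0 down to EXPA11, and EXPA5 shows the widest gap among the well-counted genes.

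In 20 members the higher library reached 5 CPM, and these were used for the comparison of genotypes. Log2 ratios are of CPM + 1, FMO5-OE T1 over Col-0, which understates differences of low genes. No expansin was 2-fold apart on this scale in either direction, where 0.737% of the 13019 nuclear loci at 5 CPM or more were at least 2-fold higher in FMO5-OE T1 and 0.346% at least 2-fold lower. With a limit of 1.5-fold, 0 of 20 expansins were higher, against 3.38% of nuclear loci, and 1 of 20, EXPA5, was lower, against 2.26%. In 12 of the 20 the fold of CPM lay within 1.25 in either direction. The counting interval of the fold lay wholly above 1 in 3 members and wholly below 1 in 7, while over all nuclear loci it lay above 1 in 17.4% and below 1 in 21.0%. With total counts the members numbered 6 above and 4 below, beside 28.4% and 12.5% of nuclear loci, and nuclear loci 1.5-fold apart numbered 635 higher and 168 lower in place of 440 and 294. As these intervals hold counting error only, such shares do not say how often 2 libraries of the same genotype would differ.

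The median log2 ratio of the 20 expansins was -0.09, with 6 above 0 and 14 below, beside -0.01 for all nuclear loci at 5 CPM or more. With total counts the expansin median was 0.0048, with 10 above and 10 below, and the median of all nuclear loci was then 0.08. Between these scalings 4 of the 20 changed sign, EXPA8, EXPA10, EXPB1 and EXLA1. A direction of the family as a whole is therefore not given.

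EXPA5 (AT3G29030), an alpha-expansin of shoot growth that responds to brassinosteroids, stood apart from the other members. It had 318 reads or 25.2 CPM in FMO5-OE T1 and 518 reads or 46.3 CPM in Col-0. The level in FMO5-OE T1 was 0.544 of that in Col-0 (0.472 to 0.627), a log2 ratio of -0.85. Its share of the expansin pool was 2.13% in FMO5-OE T1 and 3.66% in Col-0, with rank 8 and rank 7. Reads covered 90.2% of its model in FMO5-OE T1 and 91.8% in Col-0, and a single model was listed, so the count rests on nearly the whole transcript. Of the nuclear loci at 5 CPM or more, 0.538%, or 70 loci, had a log2 ratio as low or lower. EXPA5 was singled out by this same ratio, the lowest of the 20 expansins, so the share is a description only. The log2 ratio was -0.76 with total counts.

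The 250 bases before the annotated start of EXPA5 are shown because it is the member whose level differed most. They lie at chr3:11013452-11013701 on the minus strand of TAIR10.1, with no other annotated gene, and are written 5′ to 3′ along the gene. Capitals mark the auxin response element TGTCTC, found at positions -149 and -94 from the start.
EXPA5: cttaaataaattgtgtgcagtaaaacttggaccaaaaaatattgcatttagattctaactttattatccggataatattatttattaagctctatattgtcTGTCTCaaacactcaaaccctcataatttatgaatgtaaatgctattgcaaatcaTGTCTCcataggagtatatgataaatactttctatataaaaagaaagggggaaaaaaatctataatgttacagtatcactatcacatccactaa

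A set of 5 short motifs were searched on both strands in the same window of all 34 members and of 27443 nuclear protein-coding genes. TGTCTC was found in 4 members, EXPA5, EXPA6, EXPA7 and EXPA10, and in 10.9% of all promoters, while 0.849% of promoters held it 2 or more times as that of EXPA5 does. The G-box CACGTG was found in EXPB2 and in 6.49% of promoters, and the looser E-box CANNTG, which includes it, in 23 members and 55.3% of promoters. The brassinosteroid response element, written as CGTGCG or CGTGTG, was found in 7 members and in 6.71% of promoters, and not in the window of EXPA5. It was held 2 or more times by 0.605% of promoters, as by that of EXPA7. Such matches are letters in a window and do not show that a factor binds there.

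Another 6 members, 5 alpha-expansins and 1 expansin-like gene, had lower levels in FMO5-OE T1 beyond counting error with TMM factors. EXPA3 had 96.8 CPM in FMO5-OE T1 and 123 CPM in Col-0, a fold of 0.787 (0.728 to 0.851). Its share of the pool was 8.76% in FMO5-OE T1 and 10.4% in Col-0. EXPA9 had 28.5 and 35.8 CPM, a fold of 0.798 (0.690 to 0.922). EXPA14, a gene known from emerging lateral roots, had 13.3 and 18.4 CPM, a fold of 0.723 (0.586 to 0.890). In these 3 genes the interval also excluded 1 with total counts. EXLA2, an expansin-like gene, had 13.4 CPM in FMO5-OE T1 and 17.2 CPM in Col-0, a fold of 0.780 (0.631 to 0.964). The abundant EXPA6 lay closer, with 177 and 195 CPM and a fold of 0.911 (0.858 to 0.966), and so did EXPA15, with 93.3 and 104 CPM and a fold of 0.898 (0.828 to 0.975). For EXLA2, EXPA6 and EXPA15 the interval included 1 with total counts.

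In 3 members the level was higher in FMO5-OE T1 beyond counting error, with either scaling. EXPA11 (AT1G20190), next in level after EXPA15, had 817 reads or 64.7 CPM in FMO5-OE T1 and 608 reads or 54.4 CPM in Col-0, a fold of 1.19 (1.07 to 1.32). EXLB1 (AT4G17030), the single expansin-like B member, had 260 reads or 20.6 CPM and 182 reads or 16.3 CPM, a fold of 1.27 (1.04 to 1.54). EXPB3 (AT4G28250), a beta-expansin, had 231 reads or 18.3 CPM in FMO5-OE T1 and 144 reads or 12.9 CPM in Col-0, a fold of 1.42 (1.15 to 1.76). This was the largest difference on the higher side among the 20, though EXPB3 was counted on a small part of its length. All 3 remained short of 1.5-fold.

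**Figure D2:**
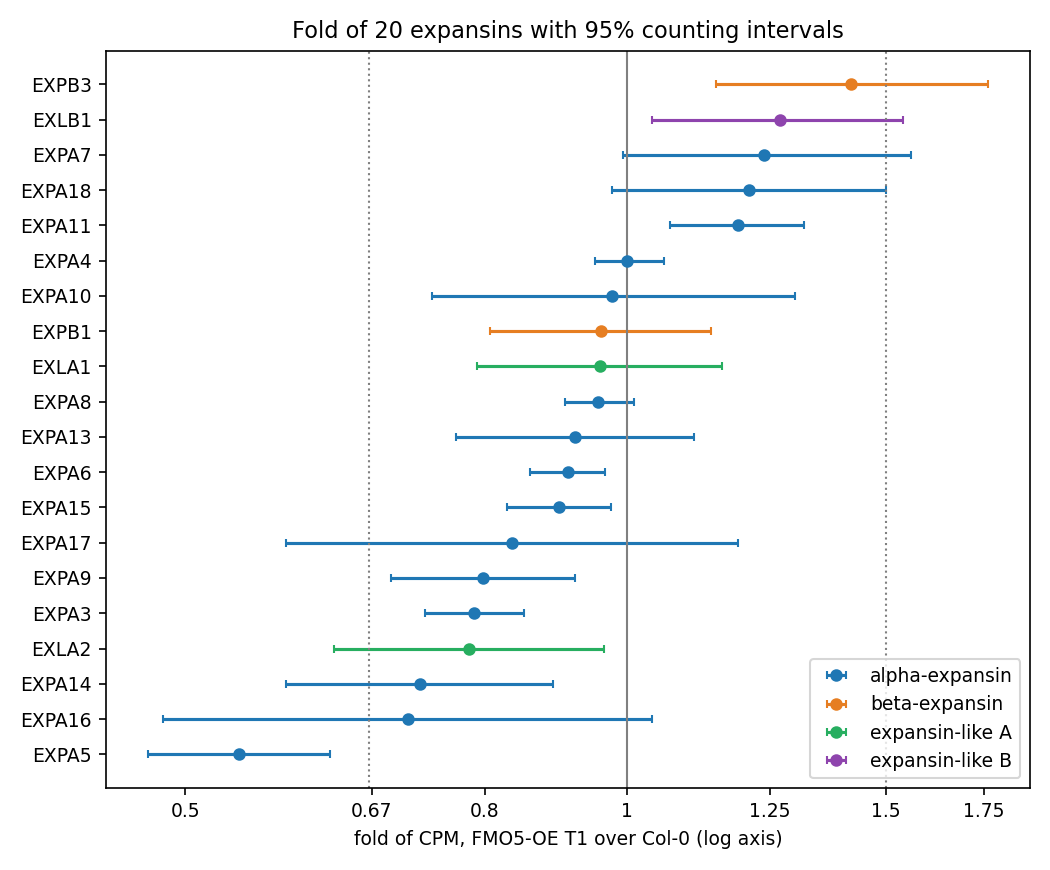
Fold of CPM, FMO5-OE T1 over Col-0, of the 20 expansins at 5 CPM or more on a log axis, with exact 95% counting intervals, colours for the classes and dotted lines at 1.5-fold in either direction. EXPA5, at 0.544, is alone beyond a dotted line, and EXPB3 has the highest value, 1.42.

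The remaining 10 members at 5 CPM or more had intervals that included 1. EXPA4 had 220 CPM in FMO5-OE T1 and 219 CPM in Col-0, with an interval of the fold from 0.95 to 1.06, and EXPA8 had 238 and 249 CPM, a fold of 0.955 (0.907 to 1.01). With total counts the interval of EXPA4 lay above 1. EXPB1, the other beta-expansin at 5 CPM or more, had 22.0 and 22.9 CPM, EXLA1 17.9 and 18.7 CPM, and EXPA13 18.3 and 19.9 CPM. EXPA10, a gene of leaf growth counted over part of its length, had 8.56 and 8.76 CPM. EXPA16 had 52 reads or 4.12 CPM in FMO5-OE T1 and 65 reads or 5.81 CPM in Col-0, and EXPA17, which acts in lateral root formation, 65 reads or 5.15 CPM and 69 reads or 6.17 CPM. At this depth the folds of these low genes were wide, 0.709 (0.483 to 1.04) for EXPA16 and 0.835 (0.586 to 1.19) for EXPA17.

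EXPA7 (AT1G12560) and EXPA18 (AT1G62980), which are expressed in root hair cells and act when the hair grows out, were set beside other root hair genes. EXPA7 had 191 reads or 15.1 CPM in FMO5-OE T1 and 136 reads or 12.2 CPM in Col-0, a fold of 1.24 (0.994 to 1.56). EXPA18 had 210 reads or 16.6 CPM and 154 reads or 13.8 CPM, a fold of 1.21 (0.977 to 1.5). Both intervals included 1 with TMM factors and lay above 1 with total counts. In whole seedlings a difference in the number of root hair cells and a difference in RNA per cell cannot be told apart.

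The other 16 root hair genes, a list that holds no expansin, summed to 688 CPM in FMO5-OE T1 and 501 CPM in Col-0, with none at 0. Of the 14 at 5 CPM or more, 14 had a log2 ratio above 0 and 6 were at least 1.5-fold higher, with a median of 0.50, beside 47.8% of nuclear loci above 0 and a median of -0.01. With total counts 14 of 14 were again above 0. The 6 were PRP1, a proline-rich wall protein (38.9 CPM in FMO5-OE T1 and 17.2 CPM in Col-0), EXT12, an extensin (83.9 and 47.8), PRX73, a peroxidase (66.6 and 41.4), COW1, a phosphatidylinositol transfer protein (16.6 and 10.3), RSL2, a transcription factor of hair growth (14.2 and 8.76), and ADF8, an actin-depolymerizing factor (9.43 and 5.63). COBL9 and LRX2, wall-related genes of the hair, were at folds of 1.02 and 1.01. RSL4, a regulator of hair length, had 41 reads in FMO5-OE T1 and 37 in Col-0, a fold of 0.982 (0.614 to 1.57). The ratios of EXPA7 and EXPA18, with log2 values of 0.29 and 0.26, lay below the median of this list. What part root hair cells had in the values of EXPA7 and EXPA18 was not tested.

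The promoters of EXPA7 and EXPA18 are shown because both are root hair genes and their folds lay side by side. Both windows of 250 bases are from the plus strand of TAIR10.1, for EXPA7 at chr1:4276255-4276504 and for EXPA18 at chr1:23331313-23331562. The EXPA18 window overlaps AT1G62978, a protein-coding gene on the other strand. Capitals mark matches to a loose pattern for the core of the root hair element, TGNNNNCACG or TGNNNNNCACG, in which N is any base.
EXPA7: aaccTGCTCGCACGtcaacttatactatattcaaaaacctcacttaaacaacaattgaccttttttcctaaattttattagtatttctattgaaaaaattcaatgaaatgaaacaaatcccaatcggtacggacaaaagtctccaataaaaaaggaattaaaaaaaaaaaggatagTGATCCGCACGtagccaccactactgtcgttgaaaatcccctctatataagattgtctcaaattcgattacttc
EXPA18: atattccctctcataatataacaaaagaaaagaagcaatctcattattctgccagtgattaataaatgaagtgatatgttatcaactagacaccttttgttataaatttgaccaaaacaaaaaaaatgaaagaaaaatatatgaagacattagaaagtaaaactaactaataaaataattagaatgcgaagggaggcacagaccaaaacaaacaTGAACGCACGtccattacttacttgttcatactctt

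The pattern lay at -246 and -74 in EXPA7 and at -36 in EXPA18. Among the 34 members it was found in these 2 and in EXPA6, and in 9.02% of all promoters. It was held 2 or more times by 1.24% of promoters, as by those of EXPA6 and EXPA7. The base before CACG was G in each match of EXPA7 and EXPA18, and A or C in those of EXPA6. A match to this loose pattern does not show that a promoter holds the element. In EXPA7 and EXPA18 each match ends in the letters CGCACG, which are the brassinosteroid element read on the other strand, so the same bases were counted for both motifs.

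The counts of 4 members rest on part of their transcript. Of the 27 with reads, 18 were covered over at least 80% of their length in both libraries. EXPB3, EXPA10, EXPA20 and EXPA1 were not, although each reached 1 CPM, and the other 5 had 9 reads or fewer per library. For EXPA10, 108 reads covered 502 of 1366 bases in FMO5-OE T1 and 98 reads covered 494 bases in Col-0. EXPA20 overlaps the non-coding RNA locus AT4G38215 on the other strand and had 45 reads or 3.57 CPM on 58.3% of its length in FMO5-OE T1 and 39 reads or 3.49 CPM on 52.4% in Col-0. EXPA1, known from guard cells and leaf growth, had 11 reads in FMO5-OE T1 and 13 in Col-0 on 2 of its 5 annotated models. Stretches of 49 bases, the read length, that occur in no other model make up between 0% and 14.4% of these 5 models. For EXPA10 such stretches can cover 56.1% of model 1 and 10.1% of model 2 of the reference. Members covered over at least 80% had low values too, 0% for model 1 of EXPA14 and 6.58% for that of EXPB1. Whether sequence shared between models had a part in the partial coverage was not tested. The EXPA1 values describe a small part of the locus and give no level of the gene.

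**Figure D3:**
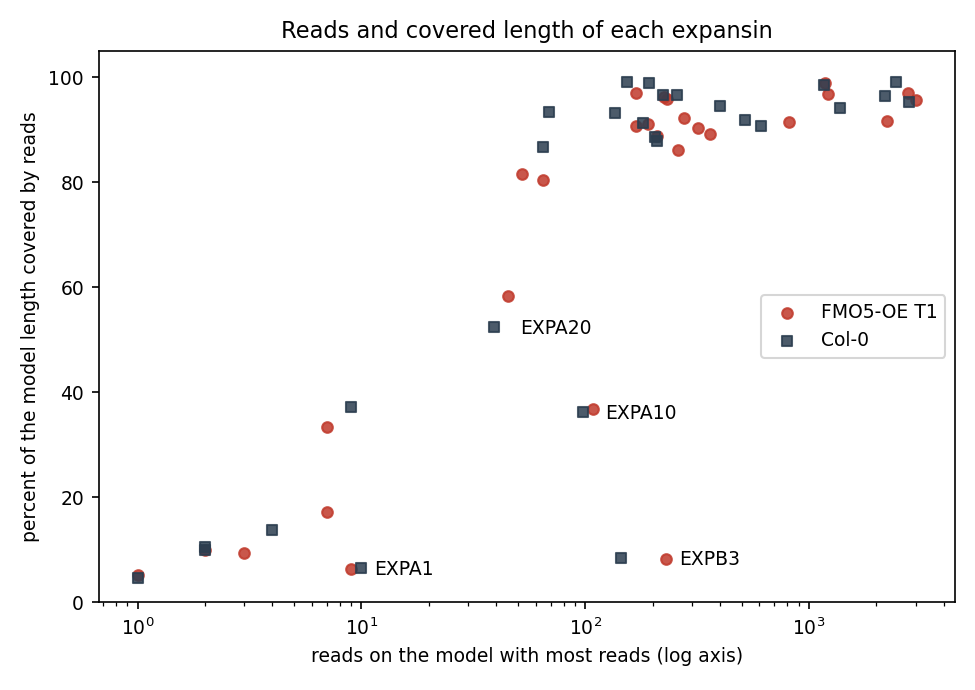
Percent of the transcript model covered by reads against the number of reads on a log axis, for the model with most reads of each of the 27 expansins, with circles for FMO5-OE T1 and squares for Col-0. EXPB3 has 230 reads in FMO5-OE T1 and 144 in Col-0 on under 9% of its length, far below other members with as many reads.

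EXPB3 had the lowest coverage among members with over 100 reads. Its deposited model 1 was covered over 111 of 1327 bases in FMO5-OE T1 and 113 bases in Col-0. The deposited model 2 has 1309 bases. The reference lists 4 models, with a model 2 of that length and a longer model 1, of 1795 bases. In the reference, stretches of 49 bases found in no other model can cover 37.7% of model 1. There, model 1 differs from model 2 inside the coding sequence by 18 extra bases, at chr4:14001063-14001080 on the minus strand of TAIR10.1, and the 49-base stretches that hold any difference from model 2 there span 113 bases. These 113 spliced bases, all coding, are shown because their number is close to the bases covered. Where the reads lay within the model is not known from the tables used here. They lie on both sides of an intron within chr4:14001016-14001436, and capitals mark the 18 bases of model 1 alone.
EXPB3: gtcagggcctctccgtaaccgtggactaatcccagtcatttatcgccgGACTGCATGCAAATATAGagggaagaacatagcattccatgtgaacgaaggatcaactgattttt

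The fold of 1.42 for EXPB3 therefore rests on 111 and 113 covered bases. It is not shown to be a fold of the whole gene. Whether the genotypes differed in the use of model 1 was not tested. Model 2 had 1 read in FMO5-OE T1 and 0 in Col-0. Divided by the bases covered, EXPB3 had 2.07 reads per covered base in FMO5-OE T1 and 1.27 in Col-0. Its rank by that measure was 3 in FMO5-OE T1 and 4 in Col-0 of 20 members, near EXPA4 with 2.14 and 1.85 reads per covered base, while per kilobase of the whole model its rank was 15 and 17. The place of EXPB3 in the order of levels depends on which length is used.

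For 7 members there was no read in either library: EXPA22, EXPA23, EXPA24, EXPA25, EXPA26, EXPB4 and EXPB5. A count of 0 allows up to 3 reads, or 0.238 CPM in FMO5-OE T1 and 0.268 CPM in Col-0. EXPA21 to EXPA26 lie side by side on chromosome 5, with gaps of 386 to 4003 bases. EXPA22, EXPA23, EXPA25 and EXPA26 share exact stretches of 49 bases with each other, but between 72.0% and 81.1% of their length can be covered by stretches found in no other locus, and EXPA24 shares none. EXPA21 (AT5G39260) alone of this cluster was detected, with 7 reads in FMO5-OE T1 and 4 in Col-0, and it overlaps AT5G39250 on the other strand. EXPB2 had 7 and 9 reads and EXLA3 6 and 1, too few to compare.

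EXLA3 and EXLA1 are neighbours on chromosome 3, 2012 bases apart, and were the only pair of members with reads that share an exact stretch of 49 bases. The longest such run is 57 bases of coding sequence, at chr3:16896255-16896311 on the plus strand of TAIR10.1 in EXLA1. It is shown because reads of 49 bases that lie wholly inside it cannot be assigned to one of the pair. Stretches found in no other locus can still cover 100% of both genes.
EXLA1: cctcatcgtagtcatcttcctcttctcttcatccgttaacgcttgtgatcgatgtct

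Genes that act around expansins in acid growth were taken as 3 lists with 18 genes at 5 CPM or more. Of these, 1 was at least 1.5-fold higher and 0 were lower, beside 3.38% and 2.26% of nuclear loci. Plasma membrane proton pumps, which acidify the wall, summed to 1196 CPM in FMO5-OE T1 and 1220 CPM in Col-0. Of the 7 pumps at 5 CPM or more, 4 had a log2 ratio above 0 and 3 below (6 and 1 with total counts), and 0 were 1.5-fold apart. AHA2, the main pump of roots, had 140 CPM in FMO5-OE T1 and 191 CPM in Col-0, a fold of 0.733 (0.688 to 0.781), and AHA8 had 12.4 and 9.21 CPM. SAUR19 to SAUR24, small auxin-induced proteins that keep the pumps active, had 3 of 6 above 0 (6 of 6 with total counts), and SAUR23 was at a fold of 1.74 (1.24 to 2.46), with 106 reads in FMO5-OE T1 and 54 in Col-0. The SAUR genes are close copies, so their single counts are uncertain. The clade D protein phosphatases 2C, which turn the pumps off, had 3 of 5 above 0, with AT3G51370 at 17.3 and 14.4 CPM and AT5G02760 at 143 and 166 CPM.

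Transcription regulators of cell elongation had 4 of 9 members above 0 at 5 CPM or more (5 of 9 with total counts) and a median log2 ratio of -0.05. BZR1, a brassinosteroid-activated factor, had 43 reads or 3.41 CPM in FMO5-OE T1 and 61 reads or 5.46 CPM in Col-0, a fold of 0.625 (0.413 to 0.938). PRE3, a small growth-promoting helix-loop-helix protein, had 4.04 and 5.99 CPM, a fold of 0.675 (0.459 to 0.986). BEE1, which promotes growth downstream of brassinosteroids, had 14.3 and 19.9 CPM, a fold of 0.719 (0.588 to 0.879). Intervals above 1 were found for PRE2, of the same family as PRE3, with 12.0 CPM in FMO5-OE T1 and 8.50 CPM in Col-0 and a fold of 1.41 (1.08 to 1.84), for IBH1, an inhibitor of growth, with a fold of 1.31 (1.16 to 1.47), and for ARF19, an auxin response factor, with a fold of 1.23 (1.10 to 1.39). The list thus held members on both sides. Primary wall cellulose synthesis genes had 2 of 7 above 0 (6 of 7 with total counts) and a median of -0.03, with COB at 310 and 338 CPM and CESA2 at 225 and 207 CPM.

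**Figure D4:**
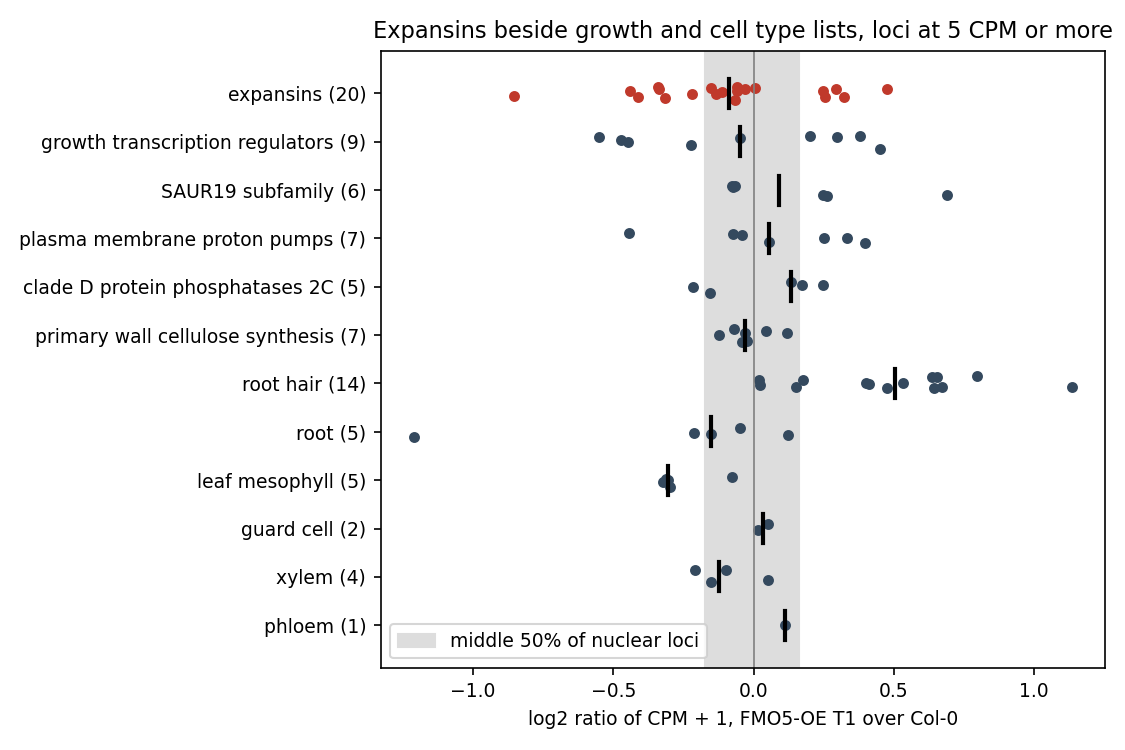
Log2 ratio of CPM + 1, FMO5-OE T1 over Col-0, for the 20 expansins (red) and for members of growth and cell type lists (dark) at 5 CPM or more, with a black bar at each median and a grey band over the middle 50% of nuclear loci. Expansins run from -0.85 to 0.48 with a median of -0.09, and the root hair list, with a median of 0.50, lies above 0 throughout.

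Cell type lists gave the context of the seedlings. The 5 leaf mesophyll markers were all below 0 (4 of 5 with total counts), with RBCS1A, a Rubisco subunit, at 1185 CPM in FMO5-OE T1 and 1481 CPM in Col-0 and LHCB1.3, a light-harvesting protein, at 19027 and 23643 CPM. Of 5 root markers at 5 CPM or more, 4 were below 0 (3 with total counts), and TIP2;3, a tonoplast aquaporin, was lower at 22.7 CPM in FMO5-OE T1 and 54.0 CPM in Col-0. The 2 guard cell markers at 5 CPM or more, FAMA and KAT1, had folds of 1.04 and 1.01, and the phloem marker SUC2 1.08. Of 4 xylem markers at 5 CPM or more, 1 was above 0 and 3 below. XCP1 and CESA4 had the lowest folds of these, 0.849 and 0.898. None of these markers was at 0 in both libraries. The mesophyll sum was lower in FMO5-OE T1 along with EXPA5, and whether the shoot share of the tissue had a part in the value of EXPA5 was not tested.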

How the data were processed

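RNA was sequenced from whole seedlings, 1 library per genotype. The deposited files give unnormalized counts of unique reads for each transcript model, the model length, the percent of it covered by reads and RPKM, per the file headers. TAIR10 is the build named in the submitters' processing notes. Not given in the sources used here were aligner, counter, use of strand and the rule by which a read was called unique. If reads shared between models were left out, the sums of genes with several models are too low. Models without reads are not listed. The 4591 models with 1 read were covered over 49 bases each, the read length.

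Counts were summed over the models of a locus, an absent locus being 0, and scaled with TMM factors from edgeR 4.0.16 (1.03 for FMO5-OE T1, 0.967 for Col-0). The deposited RPKM were not used, and CPM per kilobase came from counts and lengths. Folds are ratios of CPM with exact Clopper-Pearson intervals at 95%. PCR copies are not independent molecules, so all intervals and floors cover counting error only. No p-value is given. The code was checked on simulated counts.

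Alternatives were DESeq2 1.42.0 size factors (1.06 and 0.944), total counts, equal nuclear totals, pseudocounts of 0.1 and 5, other minimum CPM and the model with most reads. Members, gene lists and rules were chosen with earlier results of these data known. All members were to be accounted for. From each other list the rule named members 1.5-fold apart at 5 CPM or more, otherwise the 2 with the largest ratio. BGLU23, BEE1, PRE2, IBH1, ARF19, RSL4, COBL9 and LRX2 were named after their values were seen. Sequences, coordinates and annotation are from RefSeq TAIR10.1, which held all 34 members, 33 of them under the symbol used. Software was R 4.3.3 and Python 3.11.15 with scipy 1.17.1, numpy 2.4.6, matplotlib 3.10.9 and pandas 2.3.3.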

Additional observations from a re-analysis of the deposited data

How the results depend on the processing

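No paired analysis was possible because each genotype had a single library. Of 162 log2 ratios of single expansins under alternatives, 156 stayed within their counting interval and 6 moved, those of EXPA4, EXPA6 and EXPA8 with total counts and equal nuclear totals. No value past 1.5-fold changed sign, and EXPA5 alone was 1.5-fold lower under every alternative run for the count. Of 66 list medians, here over genes at 1 CPM or more, 64 were counted as unmoved and 2, both of the guard cell list, as moved. For lists of few genes this says little about stability. The median of the transcription regulators of cell elongation was 0.01 at 1 CPM or more and -0.05 at 5 CPM or more, so its sign depended on the minimum. The phloem median rests on SUC2 alone and was 0.11, and 0.21 with total counts. The guard cell median over 3 genes at 1 CPM or more, 0.02, was 0.11 with total counts and 0.10 with equal nuclear totals.

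Nuclear loci at least 2-fold higher and lower numbered 42 and 17 with a pseudocount of 5 and 56 and 21 at a minimum of 20 CPM. Those at least 1.5-fold higher and lower numbered 248 and 148 with a pseudocount of 5, 219 and 150 at 20 CPM, 778 and 499 at 1 CPM and 825 and 535 with no minimum. The lower count was 168 with total counts and 177 with equal nuclear totals. Higher minimums and pseudocounts call fewer loci by construction; for the scalings the cause was not tested.

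Over nuclear loci alone, expansins took 0.119% of reads in FMO5-OE T1 and 0.120% in Col-0. By reads per covered base, an alternative chosen after seeing the data, the pool shares in FMO5-OE T1 and Col-0 were 20.0% and 20.8% for EXPA8, 15% and 14.5% for EXPA4, 12.4% and 12.8% for EXPA6, 7.38% and 9.51% for EXPA3, and 6.16% and 6.82% for EXPA15. The expansin median over members covered to 80% or more, also chosen after seeing the data, was -0.12. Counting error was widest for the 7 members under 5 CPM that had reads, among which EXPA1 and EXPA20 were also counted over part of their length.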

Other observations

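Of the loci related to the expansins, 3 were outside the 34. EXPA19 (AT3G29365), annotated as a transcribed pseudogene, and EXPB6 (AT1G65681) had no read in either library. By the rule of 3 this allows up to 0.238 CPM in FMO5-OE T1 and 0.268 CPM in Col-0. PNP-A (AT2G18660), a plant natriuretic peptide that the annotation also lists as an expansin-like B precursor, had 18 reads or 1.43 CPM in FMO5-OE T1 and 16 reads or 1.43 CPM in Col-0, a fold of 0.997 (0.480 to 2.09).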
